A study of Homo sapiens with 7 samples.

Results

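The genes described here are 46 genes of fatty acid and lipid droplet metabolism. They were chosen by name for their roles, with earlier results of these data known. They are 46 of the 60675 gene identifiers in a table of RNA sequencing counts. They fall into 16 genes of synthesis (6 of de novo synthesis, 5 elongases and 5 desaturases), the regulator SREBF1, 4 acyl-CoA synthetases, 6 genes of glycerolipid assembly and the droplet coat, 4 genes of lipolysis, 14 genes of oxidation and the binding protein FABP5. The RNA came from MDA-MB 231, a cell line grown from a triple-negative breast cancer. Cells received siRNA against DEPDC1 (siDEPDC1, n = 4 libraries) or a control siRNA (siCTL, n = 3 libraries), both carried by Lipofectamine RNAiMAX in serum-containing DMEM. In both groups the medium was changed after 8 h and the cells were lysed for RNA 2 days after transfection. An siRNA lowers the transcript it pairs with and leaves the gene intact, and all libraries come from a single line. The siRNA sequences, and how many duplexes were used, were not among the descriptions at hand. Nothing in the labels ties the libraries of a group to separate cultures, so each p-value reflects the spread between libraries, which could be technical.

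Cells make fatty acids from cytosolic acetyl-CoA, which ACLY cuts from citrate and acetyl-CoA carboxylase turns into malonyl-CoA for the synthase FASN. The product is lengthened by elongases and given carbon-carbon double bonds by desaturases, of which SCD makes the monounsaturated fatty acids that membranes and stored triglyceride both use. Oxidation runs the other way: carnitine palmitoyltransferases bring acyl-CoA into mitochondria, and a cycle of dehydrogenases, hydratases and thiolases shortens it. Malonyl-CoA blocks the entry step, so the routes are linked, and many tumour cells are known to make fatty acids even when they can take them up.

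Library totals were 7690583 to 13483305 counts in siDEPDC1 and 11704246 to 15360409 counts in siCTL. Levels are given as CPM, the share of a library's counts on the usual scale, with library sizes scaled by edgeR's TMM factors. The target DEPDC1 (ENSG00000024526), which encodes a DEP domain protein of dividing cells, was at 15.3, 12.7, 13.4 and 11.9 CPM in the siDEPDC1 libraries, against 114, 119 and 120 CPM in siCTL. Its level was 8.89-fold lower in siDEPDC1 (log2 fold change -3.15 ± 0.075, SE; edgeR quasi-likelihood test, adjusted p = 1.2e-26 by Benjamini-Hochberg). Of the 3 receptors low in triple-negative tumours, ESR1 and PGR were too low to test, and the summed level of these and ERBB2 was 62.3 to 70.9 CPM in siDEPDC1 and 64.1 to 66.1 CPM in siCTL. The mesenchymal and epithelial markers VIM, CD44 and KRT18 summed to 4309 to 4646 CPM in siDEPDC1 and 4255 to 4628 CPM in siCTL, a sum made up mostly of VIM. KRT18 alone was higher, at 429 ± 23.0 CPM in siDEPDC1 and 349 ± 21.7 CPM in siCTL (SD; log2 fold change 0.30, edgeR adjusted p = 9.6e-05). Markers of adipocytes summed to 0.587 to 1.87 CPM in siDEPDC1 and 0.958 to 1.18 CPM in siCTL, with ADIPOQ and LEP at 0 counts in all libraries. Hepatocyte markers summed to 6.997 to 8.02 CPM in siDEPDC1 and 8.40 to 9.12 CPM in siCTL, with APOA2 and TTR at 0 and SERPINA1 lower (log2 fold change -0.32, edgeR adjusted p = 0.047). Macrophage markers summed to 16.6 to 19.9 CPM in siDEPDC1 and 15.6 to 18.1 CPM in siCTL, with CD14 higher (log2 fold change 0.60, edgeR adjusted p = 0.028). Fibroblast markers summed to 33.6 to 39.0 CPM in siDEPDC1 and 16.4 to 19.3 CPM in siCTL, with DCN at 0 and COL1A1 the only called one of the 5 (log2 fold change 1.22, edgeR adjusted p = 5.4e-13). The part of these marker levels in the values given here was not tested.

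A sequence feature of the messages is shown first, because several members with large falls carry it. The 7-base word GATAACT was found by a script as the word most unevenly spread between genes lower by at least 2-fold and the rest, in 3′ UTRs of 12202 genes outside the lists used here. It was in 83 of 150 such lower genes (55.3%) and in 7.09% of the rest. Of the 45 members tested, 6 (13.3%) carried it, against 949 of the 12316 genes searched (7.71%). The stretches below are from the last exon of the annotated transcript (3′ UTR, GRCh38, GENCODE release 29), read 5′ to 3′ on the strand of the message, with the word in capitals.
SCD, first copy: tttgctccaGATAACTctctttcct
SCD, second copy: gaagcggtgGATAACTagccagaca
ME1: ctagagaaaGATAACTtctcaagta
ABHD5: ttgtgtcttGATAACTgatattaat
ACSL3: aatgtttggGATAACTgccaagaag
ACACB: agcctcctaGATAACTgggattaca
ELOVL7: tgagtttttGATAACTtgtcattta

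The copies in SCD lie at chr10:100361294-100361318 and chr10:100364589-100364613 on the plus strand, 370 and 3665 bases after the stop codon of a 3′ UTR of 3901 bases. Those in ABHD5 (chr3:43718962-43718986), ACSL3 (chr2:222943305-222943329) and ACACB (chr12:109266998-109267022) are on the plus strand, and those in ME1 (chr6:83211440-83211464) and ELOVL7 (chr5:60754071-60754095) on the minus strand. Taken as a whole, the bases beside the word differ between all 7 stretches, though some stretches share the base next to it. Since only 1 transcript per gene was read, copies in other isoforms would be missed.

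The window around the start of SCD is shown because SCD had the largest fall of the members. It runs from 250 bases before to 50 after the start (RefSeq, GRCh38.p14, chr10:100346983-100347282, plus strand), with CCAAT boxes, the letters that NF-Y binds, in capitals.
SCD promoter: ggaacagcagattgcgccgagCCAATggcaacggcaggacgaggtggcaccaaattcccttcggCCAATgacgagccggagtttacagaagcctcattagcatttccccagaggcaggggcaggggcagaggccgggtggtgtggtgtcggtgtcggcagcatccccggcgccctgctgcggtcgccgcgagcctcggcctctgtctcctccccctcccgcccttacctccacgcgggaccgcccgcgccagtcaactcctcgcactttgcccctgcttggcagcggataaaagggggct

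The SCD window held 2 such boxes. RefSeq windows were found for 40 of the 46 members (61 windows, since some genes have several starts). CCAAT was in at least 1 window of 16 of these 40 (40.0%), against 39.7% of 27305 genes with a window. Of the 16 members that fell, 5 held it. The sterol regulatory element core TCACNCCAC was in the windows of ACSL1 and PNPLA2 (5.00% of the members, against 1.39% of all genes). The E-box CACGTG was in 4 members (10.0%, against 8.77%), and the direct repeat that PPAR binds in none, against 0.0293% of all genes. Both strands were read for each motif, and overlaps between motifs were not looked for. These matches are letters in a window, not measured binding, and no match says only that the letters are not in that window.

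Of the 46 genes, 45 passed the filter on low counts. ELOVL4, an elongase of very long chains, had 0 counts in every library, which allows a level of up to 0.391 CPM in the shallowest library and 0.197 CPM in the deepest (3 counts each, counting error only). After DEPDC1 siRNA, 16 of the 45 genes were lower (35.6%) and 4 were higher (8.89%), while 25 did not pass the test. Over all 16583 genes tested, 17.9% were lower and 16.5% were higher by the same rule, 34.4% in either direction (edgeR quasi-likelihood test, adjusted p under 0.05). The members were chosen with results of these data known, so these shares are set side by side with no test. In 15 members every siDEPDC1 library lay below every siCTL library, and in 6 every one lay above. Over all genes tested the groups lay apart in these ways in 19.6% and 17.7% (37.3% either way). The median log2 fold change was -0.087 over the members (-0.054 without siCTL replicate 2) and 0.00094 over all genes tested. Most changes were small: 5 members had an absolute log2 fold change of at least 0.5 and none reached 1. The 46 genes together took 0.590%, 0.558%, 0.555% and 0.621% of counts in the siDEPDC1 libraries, and 0.695%, 0.704% and 0.697% in siCTL. In RNA from a whole culture, a smaller share of cells that express a gene and less RNA per cell cannot be told apart.

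**Figure D1:**
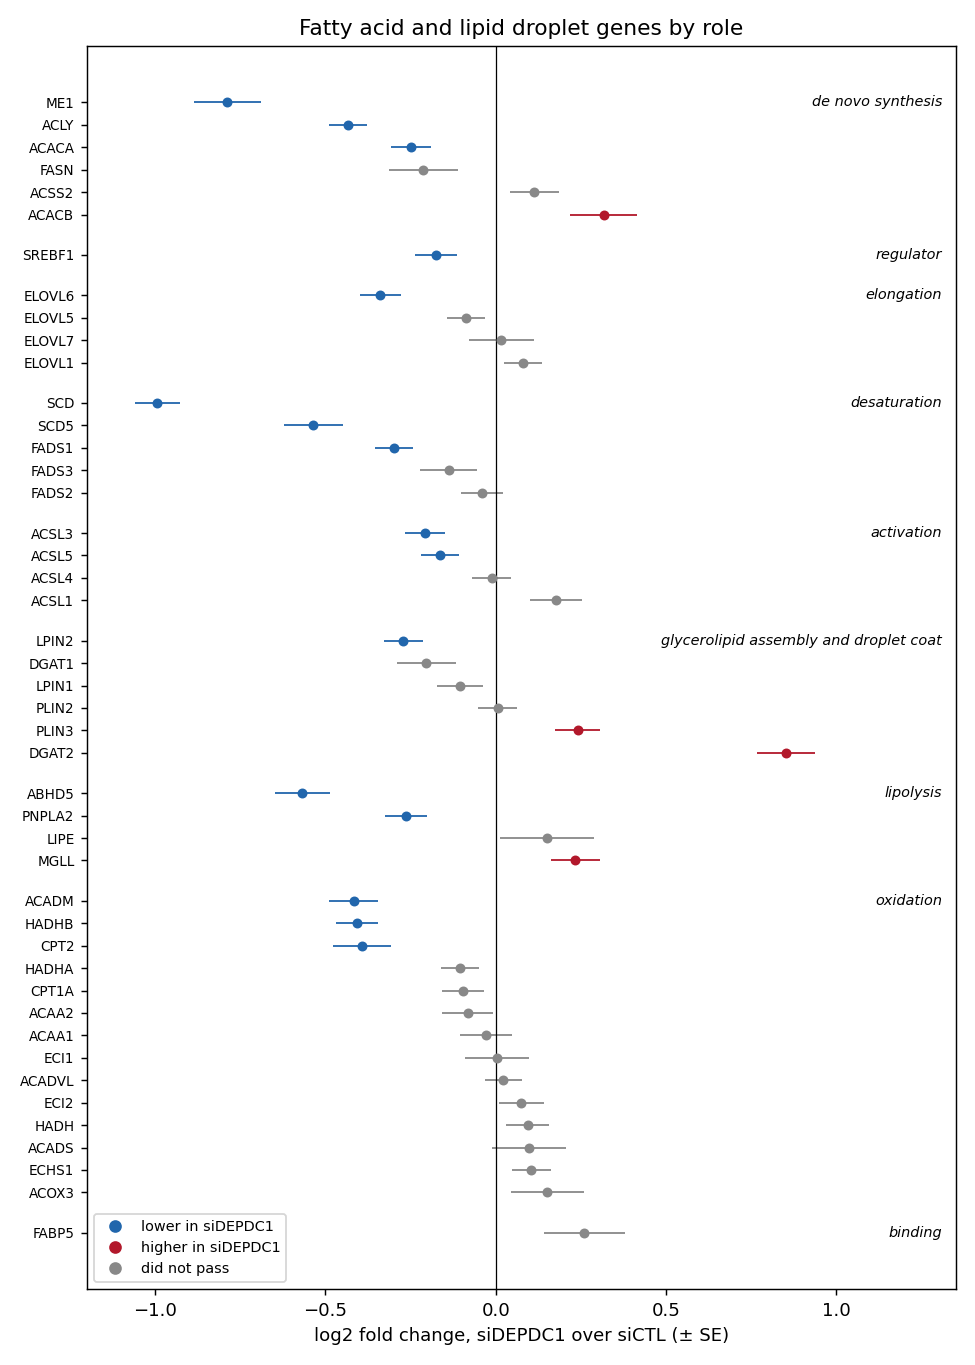
Log2 fold change (siDEPDC1 over siCTL) of the 45 members tested, with the SE as a bar, grouped by role from synthesis at the top to binding at the bottom. Blue points passed the edgeR test as lower (16), red as higher (4) and grey did not pass (25). SCD lies furthest left and DGAT2 furthest right, and the 11 grey points of oxidation lie near 0.

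Set per length of exon, the genes differed widely in level. SCD was the most abundant of the 46 in both groups, at 153 ± 17.6 CPM per kb of exon in siDEPDC1 and 304 ± 11.7 CPM per kb in siCTL (SD). FASN was at 67.3 ± 11.3 CPM per kb in siDEPDC1 and 78.0 ± 3.81 CPM per kb in siCTL, ACLY at 59.8 in siDEPDC1 and 80.8 in siCTL, and the mitochondrial hydratase ECHS1 at 78.2 in siDEPDC1 and 72.7 in siCTL. In siDEPDC1 the level of ECHS1 was thus above that of ACLY, and in siCTL it was below. The lowest members with counts were ACACB, at 1.09 CPM per kb in siDEPDC1 and 0.873 in siCTL, and LIPE, at 1.32 in siDEPDC1 and 1.17 in siCTL. DGAT2 was next in siCTL, at 3.78 CPM per kb in siDEPDC1 and 2.10 in siCTL. Exon lengths merge all annotated transcripts, so a gene with many unused exons is set too low on this scale. The smallest count behind any tested member was 57, for LIPE in a single library.

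**Figure D2:**
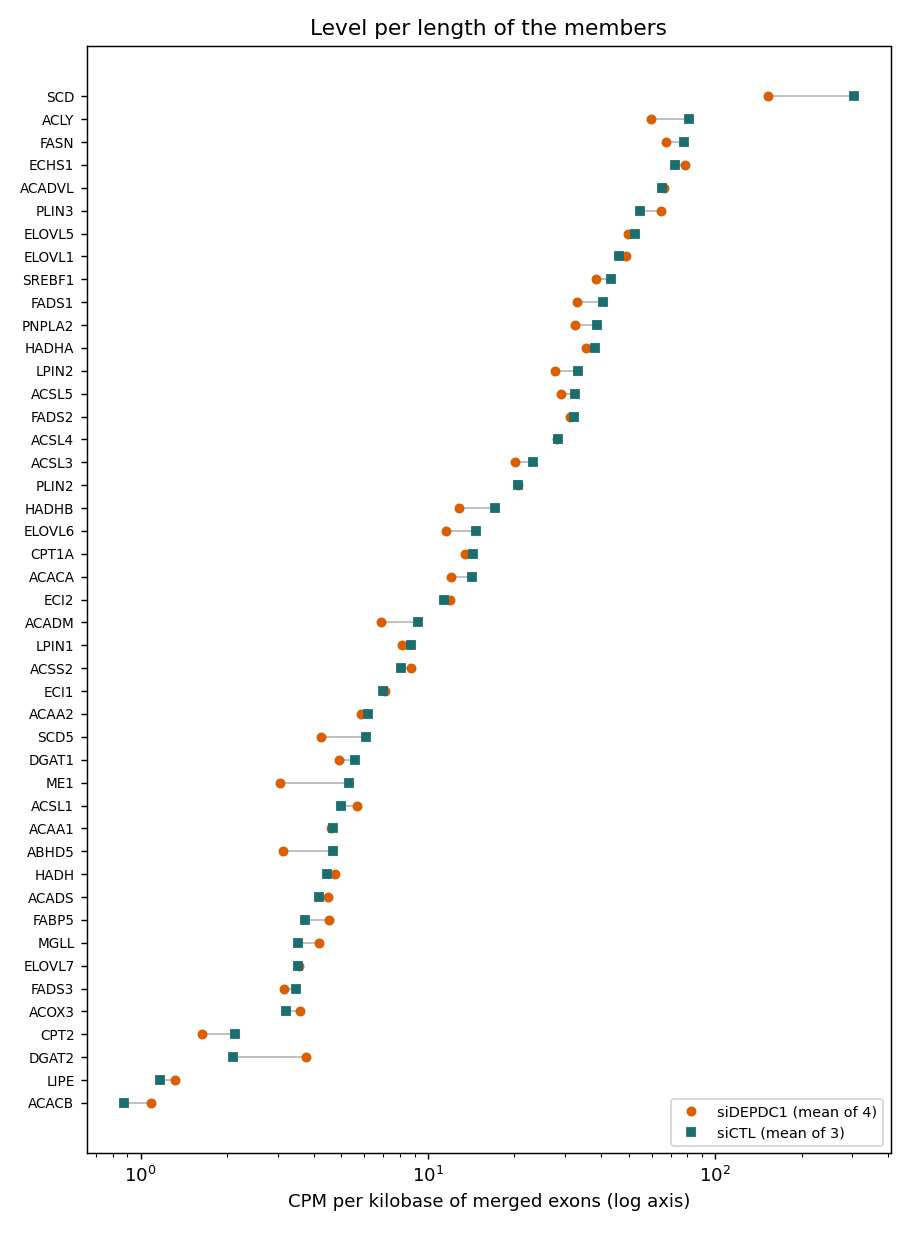
Mean level of each of the 45 members with counts, as CPM per kb of merged exons on a log axis; circles are siDEPDC1 (mean of 4) and squares siCTL (mean of 3), in the order of the siCTL level. SCD stands highest in both groups, at 153 in siDEPDC1 and 304 in siCTL, and DGAT2 near the bottom has its circle to the right of its square.

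Desaturation held the largest fall. Of the 5 desaturases, 3 were lower and none was higher, against 17.9% and 16.5% of all genes tested. All 5 had a negative log2 fold change, as did 8270 of all 16583 genes tested, and their median was -0.30. SCD (ENSG00000099194, chr10:100347124-100364834), the main stearoyl-CoA desaturase, was at 881, 760, 716 and 914 CPM in the siDEPDC1 libraries, against 1587, 1600 and 1701 CPM in siCTL. The highest siDEPDC1 library lay far below the lowest siCTL library. SCD was 1.99-fold lower in siDEPDC1 (818 ± 94.4 CPM, n = 4, and 1629 ± 62.8 CPM in siCTL, n = 3, SD; log2 fold change -0.99 ± 0.066, SE; edgeR adjusted p = 3.9e-14). SCD5 (ENSG00000145284), a second stearoyl-CoA desaturase, was at 20.2, 16.1, 17.7 and 18.5 CPM in siDEPDC1, against 24.7, 28.3 and 25.5 CPM in siCTL. Its groups did not overlap either, and it was 1.45-fold lower (log2 fold change -0.54 ± 0.087, SE; edgeR adjusted p = 7.8e-06). FADS1 (ENSG00000149485), the delta-5 desaturase of polyunsaturated fatty acids, was at 342, 318, 331 and 364 CPM in siDEPDC1, against 403, 430 and 418 CPM in siCTL. It was lower by a smaller step, again with no overlap (log2 fold change -0.30 ± 0.055, SE; edgeR adjusted p = 5.8e-05). FADS2, the delta-6 desaturase that precedes FADS1, and FADS3 had log2 fold changes of -0.04 and -0.14 and did not pass (edgeR adjusted p = 0.65 and 0.21). FADS1 and FADS2 share 490 bases of exon on opposite strands, and no source states whether counting used the strand, so reads there cannot be told apart.

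**Figure D3:**
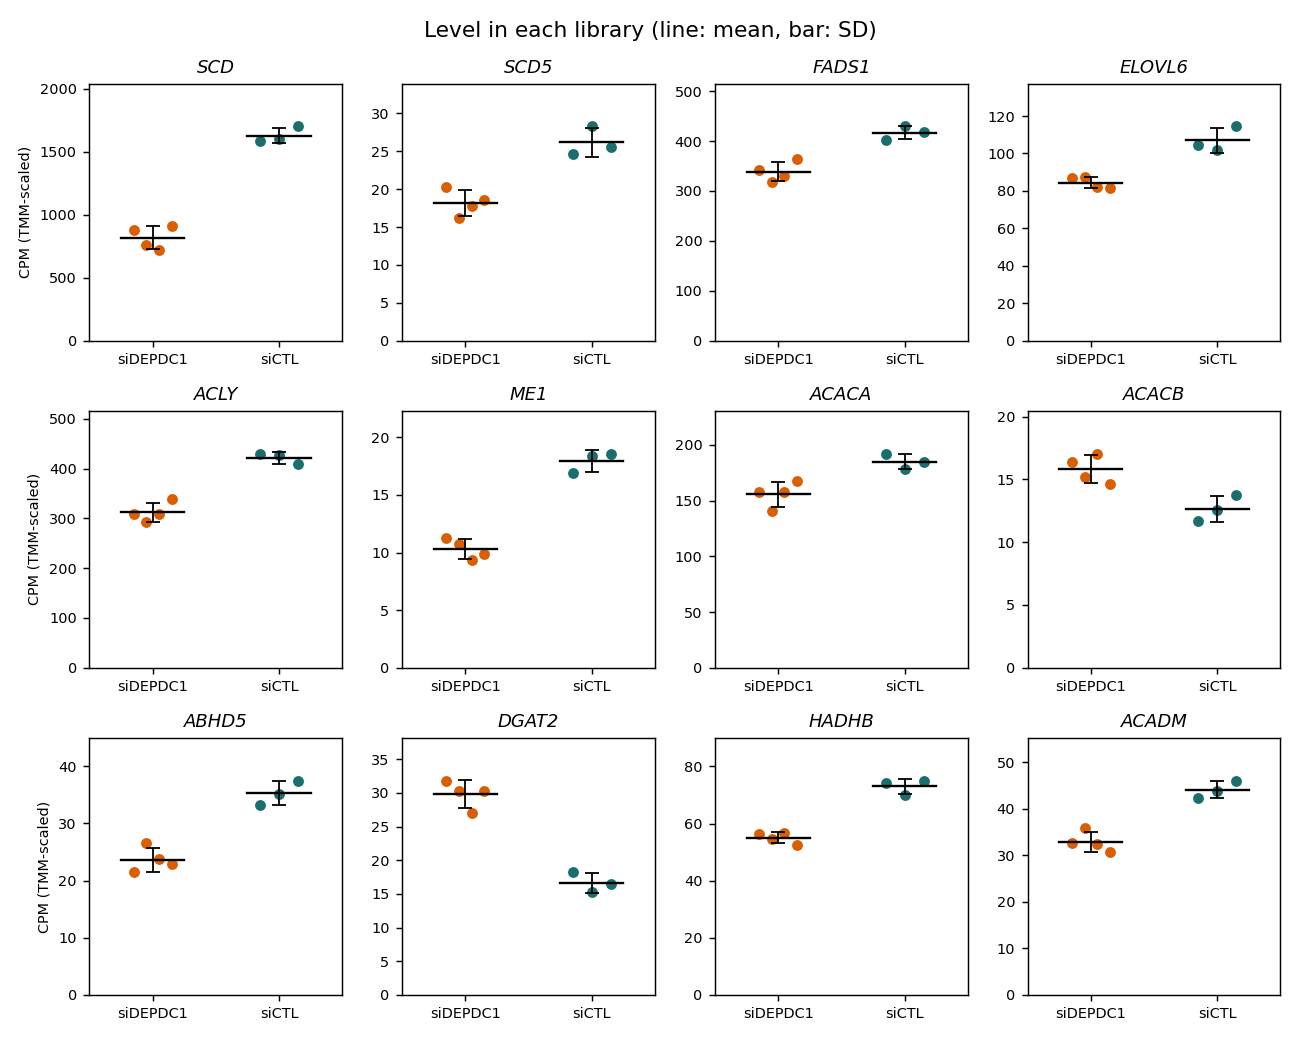
CPM in each library for 12 members, siDEPDC1 left and siCTL right, with the mean as a line and the SD as a bar; each axis starts at 0. All 12 drawn are called members whose groups do not overlap, so the panels do not show how often members lie apart. ACACB and DGAT2 are higher in siDEPDC1, and the other 10 are lower. SREBF1 and PLIN3, called with overlapping groups, and FASN are not drawn. Over all genes tested the groups do not overlap in 37.3%.

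Of the 6 de novo synthesis genes, 3 were lower (ME1, ACLY and ACACA) and 1 was higher (ACACB), against 17.9% and 16.5% of all genes tested. FASN and ACSS2 did not pass the test. ME1 (ENSG00000065833), malic enzyme, which makes NADPH, was at 11.2, 10.8, 9.38 and 9.89 CPM in siDEPDC1, against 16.9, 18.4 and 18.6 CPM in siCTL. It was 1.73-fold lower with no overlap (log2 fold change -0.79 ± 0.099, SE; edgeR adjusted p = 8.2e-08). ACLY (ENSG00000131473), ATP-citrate lyase, was at 308, 293, 309 and 339 CPM in siDEPDC1, against 430, 427 and 408 CPM in siCTL. These groups lay well apart (log2 fold change -0.43 ± 0.056, SE; edgeR adjusted p = 1.2e-07). ACACA (ENSG00000278540), the cytosolic acetyl-CoA carboxylase, was at 158, 140, 158 and 167 CPM in siDEPDC1, against 192, 179 and 184 CPM in siCTL, also without overlap (log2 fold change -0.25 ± 0.059, SE; edgeR adjusted p = 0.0011). ACACB (ENSG00000076555), the carboxylase of the mitochondrial surface whose malonyl-CoA restrains CPT1, went the other way. It was at 16.4, 15.2, 17.1 and 14.6 CPM in siDEPDC1, against 11.7, 12.5 and 13.7 CPM in siCTL, with every siDEPDC1 library above (log2 fold change 0.32 ± 0.099, SE; edgeR adjusted p = 0.012). Without siCTL replicate 1, ACACB had a log2 fold change of 0.27 and did not pass (edgeR adjusted p = 0.082). ACSS2, which makes acetyl-CoA from acetate, had a log2 fold change of 0.11 (edgeR adjusted p = 0.23).

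FASN (ENSG00000169710), fatty acid synthase, was at 609, 549, 580 and 784 CPM in siDEPDC1, against 766, 732 and 694 CPM in siCTL. A single siDEPDC1 library, replicate 4, lay above all siCTL libraries and the other 3 lay below them. The log2 fold change of -0.21 did not pass (edgeR adjusted p = 0.13), and without replicate 4 it was -0.33 (edgeR adjusted p = 2.5e-05). With all 7 libraries FASN passed under limma-voom (log2 fold change -0.23, adjusted p = 0.019) and with no count filter (log2 fold change -0.23, edgeR adjusted p = 0.00092), so its call depends on the fit. SREBF1 (ENSG00000072310), the sterol-regulated factor that drives lipogenic genes, was split in a similar way. It was at 293, 293, 293 and 354 CPM in siDEPDC1, against 364, 349 and 332 CPM in siCTL, so the groups overlapped through replicate 4. SREBF1 was lower by a small step (log2 fold change -0.18 ± 0.062, SE; edgeR adjusted p = 0.025). That call was lost without siCTL replicate 1 (edgeR adjusted p = 0.14) or 2 (0.070), without siDEPDC1 replicate 1 (0.060), 2 (0.11) or 3 (0.11), and under library size alone (0.057), while without siDEPDC1 replicate 4 the log2 fold change was -0.25 (edgeR adjusted p = 0.00051). SREBF1 shares 556 bases of exon with RAI1 on the opposite strand.

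Among the 4 tested elongases, only ELOVL6 fell. ELOVL6 (ENSG00000170522), which takes palmitate to stearate, was at 86.9, 87.2, 82.2 and 81.4 CPM in siDEPDC1, against 105, 102 and 114 CPM in siCTL. The groups did not overlap (log2 fold change -0.34 ± 0.060, SE; edgeR adjusted p = 3e-05). The other tested elongases did not pass: ELOVL5, of polyunsaturated chains, had a log2 fold change of -0.09, ELOVL7 of 0.02 and ELOVL1, of saturated very long chains, of 0.08. So 1 of 4 tested elongases was lower (25%, against 17.9% of all genes tested) and none was higher (against 16.5%).

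Acyl-CoA synthetases, which activate fatty acids by joining them to coenzyme A, moved little. ACSL3, a synthetase of the endoplasmic reticulum and nascent droplets, was at 157, 147, 136 and 140 CPM in siDEPDC1, against 159, 163 and 180 CPM in siCTL. Its groups came close without overlapping (log2 fold change -0.21 ± 0.059, SE; edgeR adjusted p = 0.0063), and without siCTL replicate 3 the call was lost (edgeR adjusted p = 0.064). ACSL5, a mitochondrial and reticulum synthetase, was at 127, 123, 119 and 124 CPM in siDEPDC1, against 137, 137 and 141 CPM in siCTL. The fall was the smallest of those called, at a log2 fold change of -0.16 ± 0.055 (SE; edgeR adjusted p = 0.020). It was lost without siCTL replicate 1 (edgeR adjusted p = 0.058), 2 (0.056) or 3 (0.070), without siDEPDC1 replicate 2 (0.050) or 3 (0.077), under library size alone (0.059) and with the replicate number as a block (0.062). ACSL4, which prefers arachidonate, had a log2 fold change of -0.01. ACSL1 had one of 0.18 (edgeR adjusted p = 0.067) and passed without siDEPDC1 replicate 3 (edgeR adjusted p = 0.045), under library size alone (0.035) and with the stricter count filter (0.040).

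Among the members, the largest rise was in an enzyme of triglyceride assembly. DGAT2 (ENSG00000062282), a diacylglycerol acyltransferase that favours newly made fatty acids, was at 31.8, 30.3, 27.0 and 30.3 CPM in siDEPDC1, against 18.2, 15.3 and 16.4 CPM in siCTL. The groups were far apart, and DGAT2 was 1.80-fold higher in siDEPDC1 (29.8 ± 2.05 CPM, n = 4, and 16.6 ± 1.46 CPM in siCTL, n = 3, SD; log2 fold change 0.85 ± 0.085, SE; edgeR adjusted p = 6.9e-10). Its exons overlap antisense transcripts over 117 and 423 bases. DGAT1, the other enzyme of that step, had a log2 fold change of -0.20 and did not pass (edgeR adjusted p = 0.062), though it did without siCTL replicate 3 (0.034) and without siDEPDC1 replicate 4 (0.048). PLIN3, a droplet coat protein that also circulates in the cytosol, was at 154, 189, 189 and 196 CPM in siDEPDC1, against 151, 163 and 148 CPM in siCTL. It was higher, with replicate 1 of siDEPDC1 inside the siCTL range (log2 fold change 0.24 ± 0.065, SE; edgeR adjusted p = 0.0041). LPIN2 (ENSG00000101577), a phosphatidate phosphatase that makes diacylglycerol, was at 205, 183, 178 and 186 CPM in siDEPDC1, against 223, 222 and 236 CPM in siCTL. It was lower with no overlap (log2 fold change -0.27 ± 0.056, SE; edgeR adjusted p = 0.00026). Its paralog LPIN1 had a log2 fold change of -0.10, and passed only without siDEPDC1 replicate 1 (edgeR adjusted p = 0.047). PLIN2, the coat protein most used as a sign of stored lipid, averaged 105 ± 3.72 CPM in siDEPDC1 and 105 ± 3.65 CPM in siCTL (SD), a log2 fold change of 0.01.

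Both genes of the first step of lipolysis were lower. ABHD5 (ENSG00000011198), the coactivator of the triglyceride lipase PNPLA2, was at 21.5, 26.5, 23.7 and 22.9 CPM in siDEPDC1, against 33.2, 35.2 and 37.4 CPM in siCTL. No libraries overlapped, and it was 1.48-fold lower (log2 fold change -0.57 ± 0.080, SE; edgeR adjusted p = 7.4e-07). PNPLA2 (ENSG00000177666) itself was at 114, 121, 129 and 135 CPM in siDEPDC1, against 159, 151 and 138 CPM in siCTL. The closest libraries of the groups were a few CPM apart (log2 fold change -0.26 ± 0.062, SE; edgeR adjusted p = 0.0010). MGLL, the lipase of the last step, was at 48.3, 47.3, 49.6 and 52.7 CPM in siDEPDC1, against 44.0, 43.4 and 38.4 CPM in siCTL. MGLL was higher (log2 fold change 0.23 ± 0.071, SE; edgeR adjusted p = 0.0096), but not without siCTL replicate 3 (edgeR adjusted p = 0.083). LIPE, the hormone-sensitive lipase, was scarce, at 6.87 ± 0.481 CPM in siDEPDC1 and 6.08 ± 1.02 CPM in siCTL (SD), and did not pass.

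Of the 14 oxidation genes, 3 were lower (21.4%, near the 17.9% of all genes tested) and none was higher (against 16.5% of all genes tested). Their log2 fold changes ran from -0.42 to 0.15 with a median of -0.012. ACADM (ENSG00000117054), the medium-chain acyl-CoA dehydrogenase, was at 32.7, 35.8, 32.4 and 30.7 CPM in siDEPDC1, against 42.4, 43.8 and 46.05 CPM in siCTL. HADHB (ENSG00000138029), the thiolase subunit of the trifunctional protein, was at 56.3, 54.7, 56.8 and 52.6 CPM in siDEPDC1, against 74.2, 70.0 and 74.98 CPM in siCTL. CPT2 (ENSG00000157184), the inner-membrane carnitine palmitoyltransferase, was at 16.8, 17.0, 18.1 and 16.3 CPM in siDEPDC1, against 23.9, 21.0 and 22.2 CPM in siCTL. In none of these 3 genes did the groups overlap. The log2 fold changes were -0.42 ± 0.073 for ACADM (SE; edgeR adjusted p = 2.4e-05), -0.41 ± 0.062 for HADHB (edgeR adjusted p = 3.2e-06) and -0.39 ± 0.086 for CPT2 (edgeR adjusted p = 0.00047). CPT2 shares 1151 bases of exon with a transcript on the opposite strand. The other 11 did not pass. CPT1A, the outer-membrane enzyme at the entry step, had a log2 fold change of -0.10, HADHA, the other trifunctional subunit, of -0.10, and the very-long-chain dehydrogenase ACADVL of 0.02. The short-chain dehydrogenases ACADS and HADH were at 0.10 and 0.09, the hydratase ECHS1 at 0.11, the isomerases ECI1 and ECI2 at 0.00 and 0.07, the thiolases ACAA1 and ACAA2 at -0.03 and -0.08, and the peroxisomal oxidase ACOX3 at 0.15. In HADH, and narrowly in ECHS1, every siDEPDC1 library lay above every siCTL library, as in 17.7% of all genes tested. FABP5, a fatty acid binding protein of the cytosol, averaged 9.44 ± 0.761 CPM in siDEPDC1 and 7.78 ± 0.592 CPM in siCTL (SD) and did not pass (log2 fold change 0.26, edgeR adjusted p = 0.089). Its siDEPDC1 libraries also all lay above those of siCTL.

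Synthesis and oxidation were then set side by side. Of the 15 tested genes of de novo synthesis, elongation and desaturation, 7 were lower (46.7%) and 1 was higher (6.67%), with a median log2 fold change of -0.21. Of the 14 oxidation genes, 3 were lower (21.4%) and none was higher, with a median of -0.012. Over all genes tested 17.9% were lower and 16.5% higher. The medians of synthesis and oxidation differed by -0.20. With all 7 libraries the synthesis median is the value of FASN, the middle gene. The synthesis median was -0.15 without siDEPDC1 replicate 2 and -0.28 without siDEPDC1 replicate 4. The oxidation median was 0.036 without siCTL replicate 1, -0.084 without siCTL replicate 3 and -0.058 without siDEPDC1 replicate 4, so its sign rests on single libraries. Within each library, the mean log2 CPM of the synthesis genes minus that of the oxidation genes was 1.06, 0.95, 0.91 and 1.01 in siDEPDC1, against 1.12, 1.14 and 1.21 in siCTL. All 4 siDEPDC1 values lay below all 3 siCTL values. The synthesis mean itself was 6.54, 6.46, 6.49 and 6.57 log2 CPM in siDEPDC1, against 6.73, 6.77 and 6.77 in siCTL. The oxidation mean was 5.48, 5.52, 5.58 and 5.56 log2 CPM in siDEPDC1, against 5.62, 5.63 and 5.56 in siCTL, where the groups overlapped. These values are described with no test, since the genes were chosen with results of these data known. With the 6 de novo genes alone set against the 11 mitochondrial oxidation genes the difference of medians was -0.15. The 11 leave out ACOX3, ACAA1 and ECI2, which were counted as peroxisomal. No other split was tried, so this value rests on that choice.

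**Figure D4:**
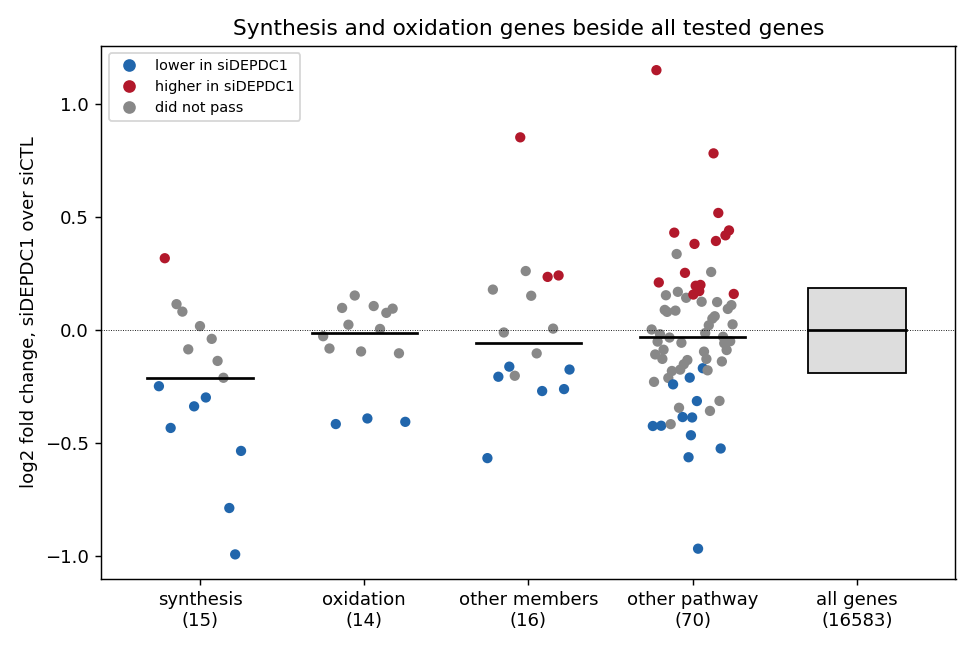
Log2 fold change (siDEPDC1 over siCTL) of each tested gene of synthesis (15), oxidation (14), the other members (16) and the further pathway genes (70), with the median as a line; the box gives the quartiles and median of all 16583 genes tested. Blue points are lower, red are higher and grey did not pass. The synthesis median of -0.21 lies below that of oxidation at -0.012, and the oxidation points that passed are 3 at about -0.4.

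For 13 pairs of partner genes, the log2 ratio of the pair was taken within each library, where scaling between libraries cancels. The pairs were chosen with these results known, so the ratios are a description with no test. The groups did not overlap in 10 of the 13 pairs. The like share over other pairs of genes was not taken. Among all genes tested, taken singly, the groups did not overlap in 37.3%. DGAT2 over DGAT1 was 0.56 ± 0.180 in siDEPDC1 and -0.47 ± 0.097 in siCTL (log2, SD), a difference of 1.04. The ratio was above 0 in every siDEPDC1 library and below 0 in every siCTL library. ACACA over ACACB was 3.30 ± 0.146 in siDEPDC1 and 3.87 ± 0.148 in siCTL, a difference of -0.57. The difference was -0.55 for ACLY over ACSS2, -0.47 for SCD over SCD5, -0.26 for FADS1 over FADS2, -0.25 for ELOVL6 over ELOVL5 and -0.20 for ACSL3 over ACSL4. It was -0.30 both for CPT2 over CPT1A and for HADHB over HADHA. HADHA and HADHB start 307 bases apart on opposite strands of chromosome 2 (RefSeq). LPIN2 over LPIN1 differed by -0.16, the groups lying close to each other. The groups overlapped in the other 3 pairs, where the difference was 0.23 for PLIN3 over PLIN2, -0.32 for ABHD5 over PNPLA2 and 0.053 for MGLL over LIPE. A ratio shows unequal change, not which of the genes changed.

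**Figure D5:**
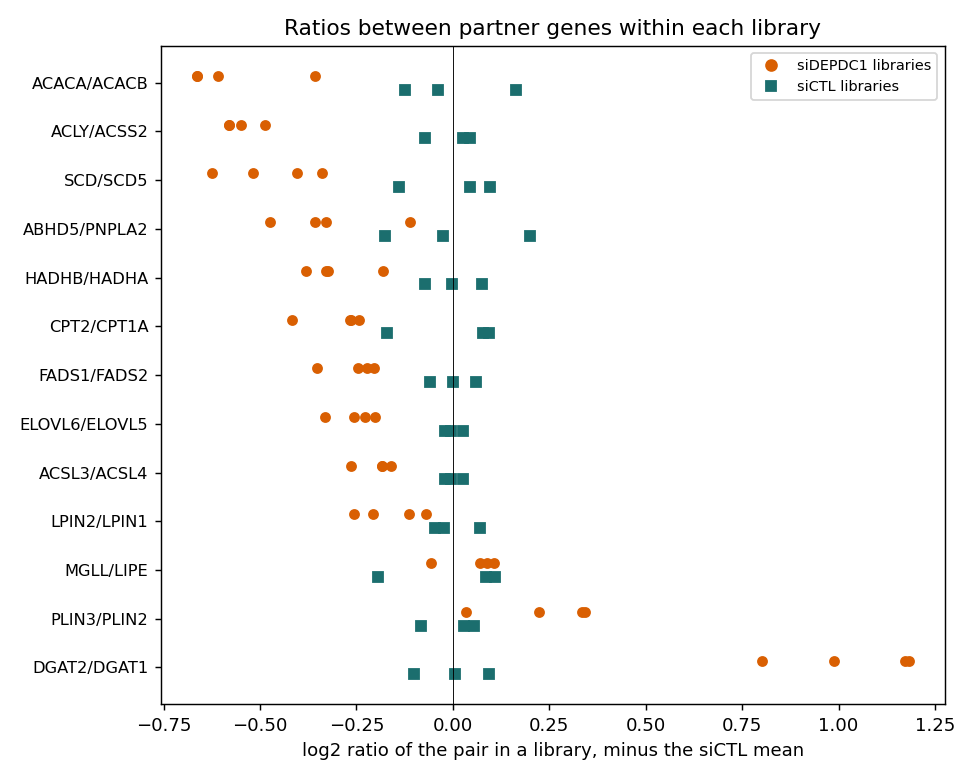
Log2 ratio of 13 pairs of partner genes in each library, minus the mean of the siCTL libraries; circles are siDEPDC1 (above) and squares siCTL (below). In 10 pairs the circles lie on one side of all squares, with DGAT2 over DGAT1 at the right and ACACA over ACACB at the left.

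The members with the 3′ UTR word were among those that fell most, with exceptions. SCD, ME1, ABHD5 and ACSL3 were lower, ACACB was higher and ELOVL7 did not pass. The median log2 fold change was -0.39 over these 6 and -0.083 over the 39 without it, beside -0.24 and 0.014 for genes with and without the word over all searched. Without the carriers, 12 of 39 members were lower and 3 were higher. Of the synthesis genes, 5 of 11 were lower and none higher, against 17.9% and 16.5% of all genes tested. Their median was -0.21 with and without the carriers, since FASN was the middle gene both times. The synthesis minus oxidation value per library was then 1.49, 1.39, 1.37 and 1.49 in siDEPDC1, against 1.54, 1.56 and 1.59 in siCTL. The word was picked on the same fold changes, and its part in the falls was not tested.

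A further 85 genes of the same pathways were listed by role. Of the 70 tested, 12 were lower (17.1%) and 15 were higher (21.4%), near the shares of all genes, with a median log2 fold change of -0.033. The count of higher genes was 8 without siCTL replicate 2 and 9 without siDEPDC1 replicate 3. HSD17B4, the peroxisomal multifunctional enzyme, was at 61.1, 61.3, 53.5 and 61.1 CPM in siDEPDC1, against 114, 117 and 118 CPM in siCTL. This fall was close to that of SCD (log2 fold change -0.97, edgeR adjusted p = 6.2e-15), and HSD17B4 carries the 3′ UTR word too. So do HSD17B12 and PRKAA1, given below as lower, and CBR4 and PRKAA2, which did not pass. The peroxisomal transporter ABCD3 was also lower (log2 fold change -0.43; edgeR adjusted p = 4.2e-06). All 5 tested genes of the elongation cycle that work beside the elongases passed, though in both directions, against 34.4% of all genes tested. HACD3 and TECR, named here outside the rule for named genes, were higher by small steps close to the threshold (log2 fold change 0.16 each; edgeR adjusted p = 0.035 and 0.050). The other 3 were lower: the dehydratases HACD1 (-0.47) and HACD2 (-0.39) and the reductase HSD17B12 (-0.32), each a log2 fold change with an edgeR adjusted p of at most 0.00033. Also lower were GPAT3, which starts glycerolipid assembly (log2 fold change -0.56), PRKAA1, a catalytic subunit of AMPK (-0.53), and ETFB, which takes electrons from acyl-CoA dehydrogenases (-0.39). Among those that rose, the citrate carrier SLC25A1 had a log2 fold change of 0.42, the brain-type carnitine palmitoyltransferase CPT1C one of 0.43, and the regulators PPARD and PPARGC1A ones of 0.39 and 0.52, and for these last 7 genes the edgeR adjusted p was at most 0.0019. PRKAA2, the other catalytic subunit of AMPK, did not pass (log2 fold change -0.14). Of the 6 genes that control SREBP processing, 1 was lower (16.7%) and 2 were higher (33.3%), with log2 fold changes from -0.17 to 0.20. Of the 12 tested further oxidation genes listed outside the peroxisome, 1 was lower (8.33%) and 3 were higher (25%). Of the 10 listed as peroxisomal, HSD17B4 and ABCD3 among them, 3 were lower (30%) and 1 was higher (10%). Over all genes tested 17.9% were lower and 16.5% higher. ACADL, the long-chain acyl-CoA dehydrogenase, named here outside the rule, had a larger rise than any member at a low level, 1.98 ± 0.394 CPM in siDEPDC1 and 0.871 ± 0.270 CPM in siCTL (SD; log2 fold change 1.15, edgeR adjusted p = 0.0019).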

How the data were processed

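The authors deposited raw counts for each Ensembl identifier in each library, neither pooled nor normalized as far as the values show. The submitters' processing notes name GRCh38 and the programs FastQC, STAR 2.7.9a and DESeq2 without saying what each did, and per the labels' protocols the libraries were TruSeq RNA with paired reads of 100 bases. The counter, the annotation release and the strand setting are not stated there. Genes were filtered with filterByExpr, which left 16583, and tested with edgeR 4.0.16 (TMM, glmQLFit with robust estimation, glmQLFTest, two-sided) in R 4.3.3, with a term for group alone and p adjusted by Benjamini-Hochberg over all tested genes (threshold 0.05). "Lower", "higher", "rose" and "fell" mean past that threshold. SEs of log2 fold changes were derived from the F statistic. Library means of log2 CPM used a prior count of 2. Of the identifiers, 42022 were matched to a symbol, and coordinates and 3′ UTRs came from GENCODE release 29, which may not be the release counted. The word search used 3′ UTRs of at least 50 bases. The fit was run on simulated counts with far fewer genes changed than were called here, as many up as down. That run checks the code and does not measure how reliable the calls are. The members, their role groups, the further pathway genes, the pairs and the word were chosen with earlier results of these data known. Members given in every library were DEPDC1, SCD, SCD5 and SREBF1 and, per role, the called members of smallest p (4 at most) and those called against the majority (2 at most); FASN was added after its values were seen. Of the further pathway genes, the 12 called with the smallest p and a mean of at least 1 CPM were named. Alternatives were DESeq2 size factors, library size alone, no filter, a stricter filter (50 counts in each library of either group), limma-voom (limma 3.58.1), DESeq2 1.42.0, a replicate block, genes without the word, and each library left out; leave-one-out of the pair ratios was added after seeing the data. Depth limits precision, and the floor given for ELOVL4 covers counting error only. SDs and SEs also hold the spread between libraries.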

Additional observations from a re-analysis of the deposited data

Results flagged for a closer look

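In 7 of 72 sets of 4 siDEPDC1 values (named members, named pathway genes and pair ratios), 1 library stood apart from the other 3 by Dixon's criterion (gap over range above 0.829, the 95% value for 4 samples); chance gives about 1 in 20. siDEPDC1 replicate 4 stood highest for SREBF1, at 354 CPM against 293 CPM in the other 3 (gap over range 0.987), and for ACADVL, at 343 CPM against 312 to 317 CPM (0.834). The same replicate stood lowest for HACD1, at 10.3 CPM against 12.7 to 12.8 CPM (0.980), and for the log2 ratio of CPT2 over CPT1A, at -2.49 against -2.34 to -2.32 (0.867). siDEPDC1 replicate 3 stood highest for HADH, at 60.3 CPM against 56.3 to 56.6 CPM (0.942), and lowest for HSD17B4, at 53.5 CPM against 61.1 to 61.3 CPM (0.979). siDEPDC1 replicate 1 stood lowest for PLIN3, at 154 CPM against 189 to 196 CPM (0.829, at the limit).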

How the results depend on the processing

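The falls of SCD, SCD5, FADS1, ELOVL6, ACLY, ME1, ACACA, ABHD5, PNPLA2, LPIN2, ACADM, HADHB and CPT2 and the rises of DGAT2 and PLIN3, 15 of the 20 called members, passed under all 15 alternative fits; of the 25 members not called, 21 stayed so. The 6 libraries fitted with no replicate block are all but siDEPDC1 replicate 4, so that fit enters the 15 more than once. No member changed direction past the threshold. Across these fits 14 to 18 members were lower and 3 to 5 were higher. The median over the members (-0.087) was -0.056 under library size alone and -0.10 to -0.054 with 1 library left out. The difference of medians between synthesis and oxidation (-0.20) was -0.23 to -0.16 with 1 library left out, and -0.15 for the 6 de novo against the 11 mitochondrial genes. Of the further pathway genes, 15 were higher, against 7 with no filter, 9 with DESeq2 and 8 to 16 with 1 library left out, 8 of them without siCTL replicate 2 and 9 without siDEPDC1 replicate 3; the cause was not tested. The replicate numbers did not pair the libraries (correlations of deviations -0.12, -0.042 and 0.003). With the replicate block on 6 libraries, 16 members were lower and 4 higher, against 18 and 4 in the same 6 without it, and over all genes 2437 and 2292, against 2767 and 2627.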
